A study of Mus musculus with 5 samples.

Results

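The peptidylarginine deiminase (Padi) cluster of mouse chromosome 4 was examined for H3K27me3, the trimethylated form of histone H3 at lysine 27, in dermal fibroblasts with and without Kdm6b. Its 5 genes, Padi6, Padi4, Padi3, Padi1 and Padi2 in chromosome order, are 5 of 21728 protein-coding genes and were chosen by the measured coverage of this locus by peaks, in the start site ± 3 kb, the start site ± 25 kb and the whole cluster. All coverage of the members in the 4 libraries is therefore a description, and no test was run on it. Fibroblasts came from the skin of E18.5 embryos of C57BL/6 background, were grown in AmnioMAX medium, and gave 2 Kdm6b-cKO libraries (replicates 3 and 4) and 2 WT libraries (replicates 7 and 9). Kdm6b (Jmjd3) is an enzyme that takes methyl groups off this lysine. In the Kdm6b-cKO it is a floxed allele (Kdm6b fl/fl) cut by a Cre driven from Twist2, also named Dermo1, a gene active in dermal mesenchyme, and the methods also give a ROSA26 mT/mG reporter that turns GFP on in Cre-active cells. GFP sorting is stated in the labels as the sign of the knockout, and it is stated for the WT libraries as well. Whether replicates of a genotype came from separate embryos is not given, so the spread between them may be technical. The values are positions of broad peaks called by the authors in each library with MACS2, from libraries that the methods describe as subsampled to a like number of reads. The lists hold no read counts per peak, and the deletion of Kdm6b itself could not be checked. In such bulk cultures, a mark in more cells and more of the mark per cell cannot be told apart.

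The Kdm6b-cKO lists held 44077 (replicate 3) and 40565 (replicate 4) peaks, the WT lists 29841 (replicate 7) and 22597 (replicate 9), over 148 and 124 Mb against 91.4 and 61.5 Mb of the autosomes and the X chromosome. Coverage was thus 1.78 times as long in Kdm6b-cKO over the whole genome, and every comparison at the cluster stands against that shift. The promoters of all 8 fibroblast markers examined, among them Col1a1, Pdgfra and Twist2, held 0 kb of peaks in every library. Of 6 keratinocyte markers 5 were marked in at least 1 library, as were 1 of 3 endothelial, 1 of 3 immune, 1 of 3 melanocyte and 3 of 3 muscle markers. Over all 21728 protein-coding promoters, 71.2% were marked in no library, so the counts of 1 of 3 lie near the share of all promoters. The summed promoter coverage of the keratinocyte list was 18.7 to 19.3 kb in Kdm6b-cKO and 15.6 to 16.3 kb in WT. The part of these markers in the values of the cluster was not tested. The keratinocyte promoters differed widely. Cdh1 was covered at 100% in all 4 libraries, Epcam at 79.5% to 100% and Krt1 at 72.3% to 100%. Krt10 had 0% in all 4, and Krt14 had 19.5% in Kdm6b-cKO replicate 3 and 0% elsewhere. Krt5 had 2.73% and 12.4% in Kdm6b-cKO replicates 3 and 4 and 0% in WT.

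Peptidylarginine deiminases are calcium-dependent enzymes that convert arginine in proteins to citrulline, which removes a positive charge and can loosen protein structure. In skin, citrullination of keratins, filaggrin and trichohyalin accompanies the formation of the cornified layer and of the hair shaft. PADI1 and PADI3 are the forms of the epidermis and the hair follicle. PADI2 is widely expressed and acts on myelin basic protein, among others. PADI4 carries a nuclear localization signal, citrullinates histones and is known from granulocytes, and PADI6 is needed in the oocyte and early embryo. H3K27me3 is placed by Polycomb repressive complex 2 and is found on silent genes, so genes of epithelial, blood and germ cells are among those where it can lie in fibroblasts.

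The cluster spans 225 kb of GRCm38/mm10, chr4:140727355-140952586. Padi6, Padi4, Padi3 and Padi1 lie on the minus strand, and Padi2 lies on the plus strand beyond a gap of 60.6 kb. Each gene has 16 exons in its first annotated transcript. The sequences before the starts of Padi3, Padi2 and Padi4 are shown because these promoters stood for the 3 states found, marked in the Kdm6b-cKO libraries alone, marked in all 4, and marked in none. Each runs 5′ to 3′ on the strand of its gene over 200 bases, from 250 to 51 bases before the RefSeq start, from the RefSeq table of GRCm38.p6, the assembly behind mm10. The capitals mark CpG dinucleotides. The positions are chr4:140810699-140810898 (minus strand) for Padi3, chr4:140906110-140906309 (plus strand) for Padi2 and chr4:140774254-140774453 (minus strand) for Padi4.

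Padi3: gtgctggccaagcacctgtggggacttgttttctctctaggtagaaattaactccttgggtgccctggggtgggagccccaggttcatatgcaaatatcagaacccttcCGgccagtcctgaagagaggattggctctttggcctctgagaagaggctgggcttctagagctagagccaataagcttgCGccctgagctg
Padi2: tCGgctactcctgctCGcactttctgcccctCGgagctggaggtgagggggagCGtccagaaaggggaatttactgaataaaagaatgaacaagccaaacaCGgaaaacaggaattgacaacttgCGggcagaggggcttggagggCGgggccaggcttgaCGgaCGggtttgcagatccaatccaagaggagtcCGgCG
Padi4: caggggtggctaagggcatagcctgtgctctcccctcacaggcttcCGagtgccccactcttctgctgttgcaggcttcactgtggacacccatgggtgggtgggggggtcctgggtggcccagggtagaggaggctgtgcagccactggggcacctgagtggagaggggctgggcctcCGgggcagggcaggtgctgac

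CpG density set Padi2 apart. All 5 members matched the RefSeq table, and in the 300 bases from 250 before to 50 after the start Padi2 held 22 CpG, Padi4 8, Padi3 4, Padi1 3 and Padi6 2. Over 32619 such windows the median was 7 CpG, with quartiles of 3 and 20. At least as many CpG as in Padi2 were found in 23.3% of windows, against 69.0% for Padi3, 77.0% for Padi1 and 86.1% for Padi6. The stretch before Padi3 above holds 2 CpG and that before Padi2 holds 11. The letters TATAAA, sought on both strands, were present in the 300-base window of Padi4 and in none of the other 4 members, and in 13.7% of all windows. The cluster as a whole was rich in GC, at 51.8% with 16.1 CpG per kb, beside 42.3% and 8.77 per kb for chromosome 4. Within the cluster, bases covered in both Kdm6b-cKO libraries and no WT library had 53.4% GC and 16.1 CpG per kb, and bases covered in no library had 51.2% and 15.7 per kb, so that composition differed little between them. The 3.47 kb covered in all 4 libraries had 54.4% GC and 21.0 CpG per kb.

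H3K27me3 covered far more of the cluster in Kdm6b-cKO than in WT. Peaks covered 108 kb in Kdm6b-cKO replicate 3, 87.6 kb in Kdm6b-cKO replicate 4, 16.6 kb in WT replicate 7 and 8.37 kb in WT replicate 9. Both Kdm6b-cKO libraries were high and both WT libraries low, with no overlap. The means were 97.8 ± 14.3 kb (SD, n = 2) and 12.5 ± 5.84 kb (SD, n = 2), a difference of 85.3 kb and a ratio of 7.82, beside the 1.78 of the whole genome. As a share of the cluster these lengths were 47.9% and 38.9% against 7.38% and 3.72%. When each library was scaled to the covered length of its own list, the values were 77.3, 75.2, 19.3 and 14.5 kb, and the difference was 59.4 kb. All lists but the shortest, WT replicate 9, were also cut to their strongest peaks at its covered length (equal covered length). Then 27.2 and 39.0 kb remained in the Kdm6b-cKO lists, against 1.32 and 8.37 kb in the WT lists, a difference of 28.2 kb. The lowest −log10 q kept, where q is the adjusted significance of a peak, was 4.76 and 4.12 in Kdm6b-cKO replicates 3 and 4. It was 3.53 in WT replicate 7 and 2.05 in WT replicate 9, so the lists were compared at unlike thresholds.

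**Figure D1:**
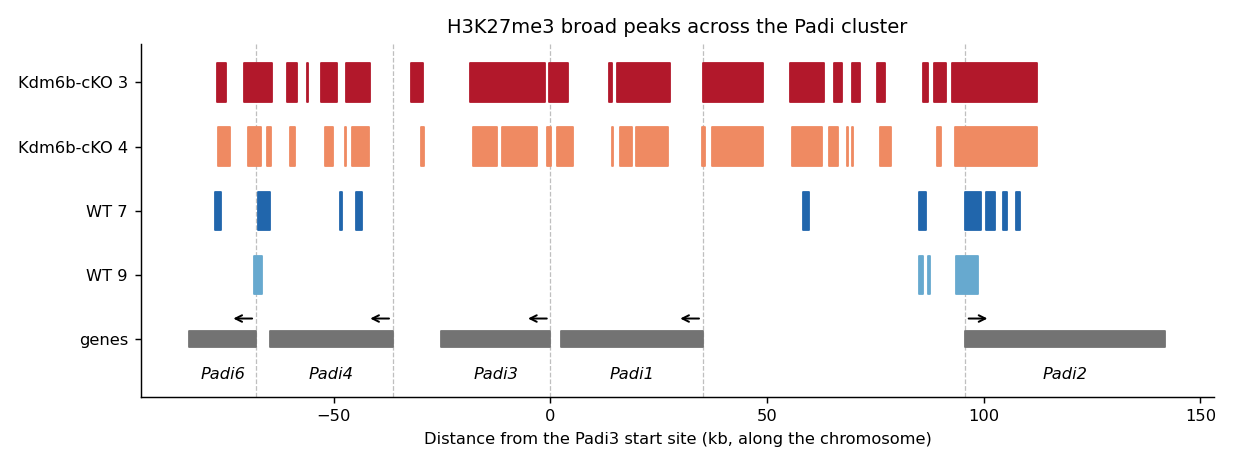
Broad peaks of the 4 libraries (colored bars, 1 row per library) against distance from the Padi3 start site in kb, with gene bodies in grey, arrows for the direction of transcription and dashed lines at start sites. Padi3 and Padi1 lie under long Kdm6b-cKO peaks and under no WT peak, and the 3′ part of Padi2 is empty in all 4 rows.

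Little coverage lay beside the cluster. The flank of equal length on the left, which holds Arhgef10l and Rcc2, had 9.02 and 8.89 kb in the Kdm6b-cKO lists, against 1.95 and 2.59 kb in the WT lists. The flank on the right had 7.47 and 8.99 kb against 1.78 and 1.54 kb. Both flanks were low in every library beside the cluster, while Kdm6b-cKO was above WT in each. The ratio of the means was 3.94 on the left and 4.96 on the right, between the 1.78 of the whole genome and the 7.82 of the cluster. The nearest genes on either side, Rcc2, a regulator of chromosome condensation, at 4.14 kb, and Sdhb, a subunit of mitochondrial complex II, at 8.62 kb, had 0% of the promoter covered in all 4 libraries, as did Arhgef10l and Mfap2. Atp13a2 had 4.17% in Kdm6b-cKO replicate 4 only. The third gene on the left, Igsf21, at 481 kb, was covered at 100% in all 4. Among 11683 windows of the cluster's length tiled over the genome, 43 had a difference at least as large, the cluster's mean in Kdm6b-cKO lay at percentile 98.0, and its mean in WT at percentile 85.4. Of 232 windows whose WT mean was within 10% of that of the cluster, the median Kdm6b-cKO mean was 22.6 kb and the highest was 98.5 kb, so the 97.8 kb of the cluster was close to the top of these windows. These ranks describe a locus that was picked for this difference.

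**Figure D2:**
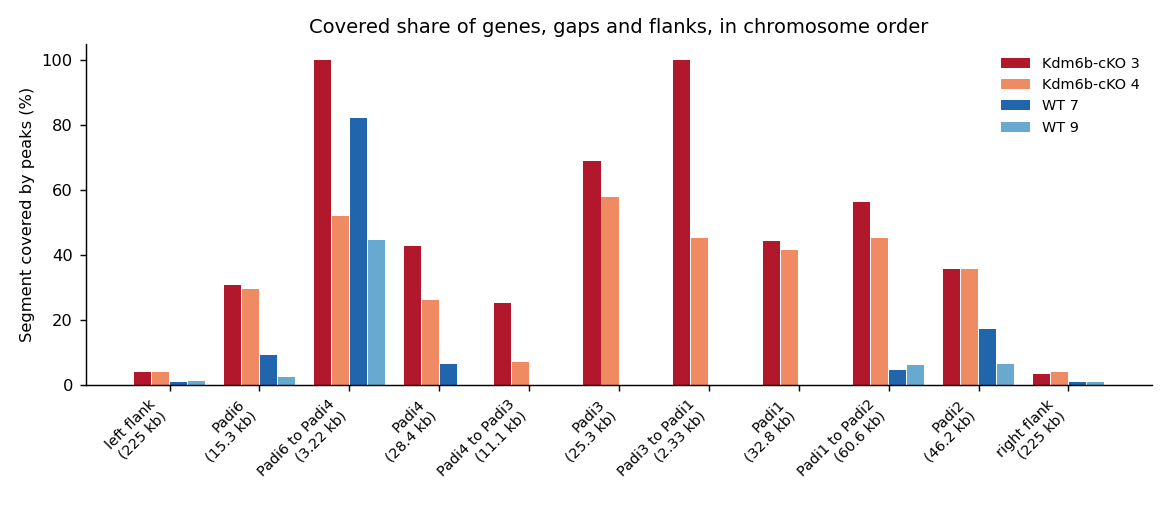
Share of each gene body, gap between genes and flank covered by peaks (%, bars from 0, 1 bar per library, lengths in brackets), in chromosome order. Padi3 reached 69.0% and 57.9% in Kdm6b-cKO with no bar in WT, and the flanks stayed under 5% in all 4 libraries.

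The promoters fell into 3 states. A promoter, the start site ± 3 kb, was called marked when at least 500 bp of it were covered. Of the 5 promoters, 4 carried the mark in at least 1 library. Of these 4, 2 (Padi3 and Padi1) carried it in each Kdm6b-cKO library but in no WT library. Over the genome, 14.9% of 6251 promoters with the mark in any library had this state. A further 2 (Padi6 and Padi2) were marked in all 4 libraries, a state of 52.7% of these promoters, and 1 (Padi4) was marked in none, as were 71.2% of all protein-coding promoters. These counts describe values that chose the members. The lowest marked value was 1572 bp, at Padi1 in Kdm6b-cKO replicate 4, and every unmarked value was 0 bp, so the 500 bp limit decided no call. With the lists reduced to equal covered length, 0 promoters had the first state, and neither Padi6 nor Padi2 was marked in all 4 libraries.

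Padi3, a form of the hair follicle, and Padi1 had close differences, above those of the other members within 25 kb in the full lists. Its promoter was covered at 82.3% and 43.4% in Kdm6b-cKO replicates 3 and 4 and at 0% in WT replicates 7 and 9. Within 25 kb of its start, peaks covered 31.8 kb in Kdm6b-cKO replicate 3, 26.9 kb in Kdm6b-cKO replicate 4 and 0 kb in either WT library. The difference of 29.4 kb ranked 18 of 21728 genes. In all, 11938 genes had no peak within 25 kb of the start in either WT library. Of them, only Padi3 had both Kdm6b-cKO libraries at or above its own lower value. Both conditions were taken from Padi3, so it met them by construction, and this is a description. Sppl2c also exceeded that value, at 31.953 kb in Kdm6b-cKO replicate 3 and 30.699 kb in replicate 4. Its WT lengths were 0.304 kb (replicate 7) and 1.33 kb (replicate 9). Gm4763 and BC049730, with some WT coverage, exceeded it too. The gene body of Padi3 was covered over 17.4 kb (69.0%) and 14.65 kb (57.9%) in Kdm6b-cKO. The nearest WT peaks lay 43.5 and 66.6 kb from the start. In Kdm6b-cKO replicate 3 a single peak of 17.2 kb, chr4:140792155-140809326, ran from intron 11 to intron 1. In Kdm6b-cKO replicate 4 the same stretch held a peak of 5.53 kb from intron 11 to intron 5 and one of 8.24 kb from intron 4 to intron 1. A separate peak lay over the start in each. The 3′ end of the gene fell in a stretch with no peak in any library, chr4:140781568-140792154. With the lists reduced to equal covered length, the length within 25 kb was 0 and 6.20 kb in Kdm6b-cKO and 0 kb in WT, so that replicate 3 kept no peak there.

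Padi1, the epidermal form, resembled Padi3. Its promoter was covered at 50.3% and 26.2% in Kdm6b-cKO and 0% in both WT libraries. Within 25 kb of the start the lengths were 31.5, 27.5, 1.32 and 0 kb, in the order Kdm6b-cKO 3, Kdm6b-cKO 4, WT 7, WT 9, and the difference of 28.9 kb ranked 21. The gene body held 14.6 and 13.6 kb in Kdm6b-cKO, 44.4% and 41.5% of it, and 0 kb in WT. A region of 12.2 kb, chr4:140825991-140838148, between intron 10 and intron 1, was 1 peak in Kdm6b-cKO replicate 3 and 10.3 kb in 2 peaks in replicate 4. A region of 14.1 kb, chr4:140845624-140859734, lay over the start and extended upstream of the gene, and was covered over 14.0 and 12.5 kb. Its far ends in the 2 Kdm6b-cKO lists were 22 bp apart. The 25 kb windows of Padi3 and Padi1 share 14.9 kb, so their lengths are not independent. At equal covered length the values at Padi1 were 4.73, 11.7, 1.32 and 0 kb.

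Padi2, the widely expressed form, carried the mark in every full list and a longer domain in Kdm6b-cKO. Its promoter was covered at 99.2% and 89.2% in the Kdm6b-cKO lists, against 49.7% and 84.7% in the WT lists, so that the higher WT value was close to the lower Kdm6b-cKO value. At equal covered length the WT replicate 7 value was 0%, with the other 3 as before. Within 25 kb the lengths were 26.2, 22.2, 9.48 and 6.55 kb, with a difference of 16.2 kb that ranked 432. At equal covered length that difference was 15.9 kb, with 19.5, 18.9, 0 and 6.55 kb, and it was the largest of the 5 members, beside 7.54 kb for Padi1 and 3.10 kb for Padi3. The body of the gene was covered over 16.55 and 16.54 kb in the Kdm6b-cKO lists, against 7.99 and 2.89 kb in the WT lists. A single peak in each Kdm6b-cKO list, 19.5 and 18.9 kb long, began upstream of the start and ended in intron 3, at 140922891 and 140922881, which are 10 bp apart. In WT replicate 9 the 5′ end held 1 peak of 5.08 kb, and in WT replicate 7 the longest was 3.66 kb. The 2.87 kb shared by all 4 libraries, chr4:140906362-140909233, began 0.018 kb past the start site and lay over exon 1 and intron 1. Beyond the Kdm6b-cKO domain, the last 29.7 kb of Padi2 held no peak in any library.

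**Figure D3:**
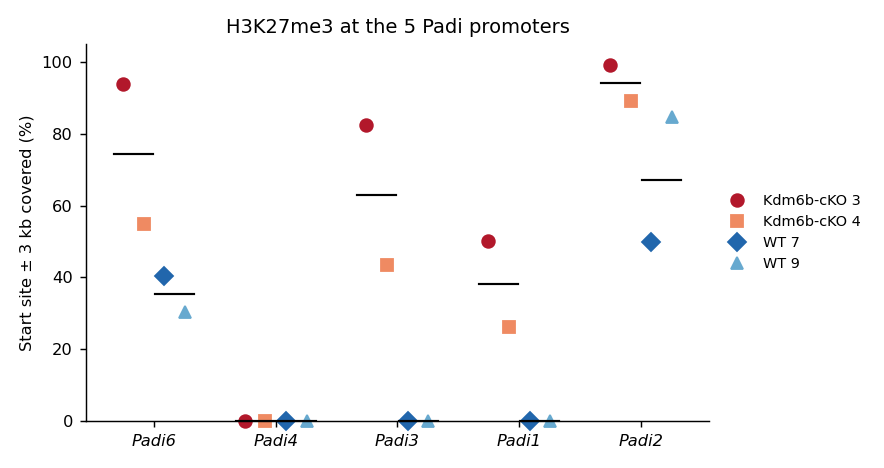
Covered share of the start site ± 3 kb (%) of each gene in each library (points), with the mean of 2 libraries per genotype as black lines. Padi3 and Padi1 are above 0 in the Kdm6b-cKO libraries alone, Padi4 is at 0 in all 4, and Padi2 has the highest mean in both genotypes.

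Padi4, the granulocyte form, gained coverage in its body and none at its promoter. The promoter was covered at 0% in all 4 libraries, and the nearest peaks lay 4.22 and 5.45 kb from the start in the Kdm6b-cKO lists, against 7.12 and 30.2 kb in the WT lists. Within 25 kb the lengths were 21.5, 13.3, 1.73 and 0 kb, with a difference of 16.6 kb that ranked 404. At equal covered length they were 0, 1.75, 0 and 0 kb, a difference of 0.877 kb. The body held 12.1 and 7.42 kb in the Kdm6b-cKO lists, against 1.79 and 0 kb in the WT lists. A stretch of 9.502 kb around the start, chr4:140768958-140778459, had no peak in any library. Padi4 was the only member with coverage in its body and none at its promoter in Kdm6b-cKO.

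Padi6, the oocyte form, had the smallest difference of the 5 within 25 kb in the full lists. Its promoter was covered at 93.8% and 54.9% in the Kdm6b-cKO lists, against 40.5% and 30.3% in the WT lists. Within 25 kb the lengths were 18.7, 12.5, 5.83 and 1.82 kb, with a difference of 11.8 kb that ranked 969. At equal covered length they were 0, 4.76, 0 and 1.82 kb, and the difference was 1.47 kb. Kdm6b-cKO replicate 3 then lay below WT replicate 9, whose list was not cut in this setting. The gap of 3.22 kb between Padi6 and Padi4 was the segment in which the genotypes overlapped, at 3.22 and 1.68 kb in the Kdm6b-cKO lists, against 2.65 and 1.43 kb in the WT lists, and it held 0.601 kb covered in all 4 libraries. The body of Padi6 held 4.71 and 4.52 kb against 1.40 and 0.385 kb.

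**Figure D4:**
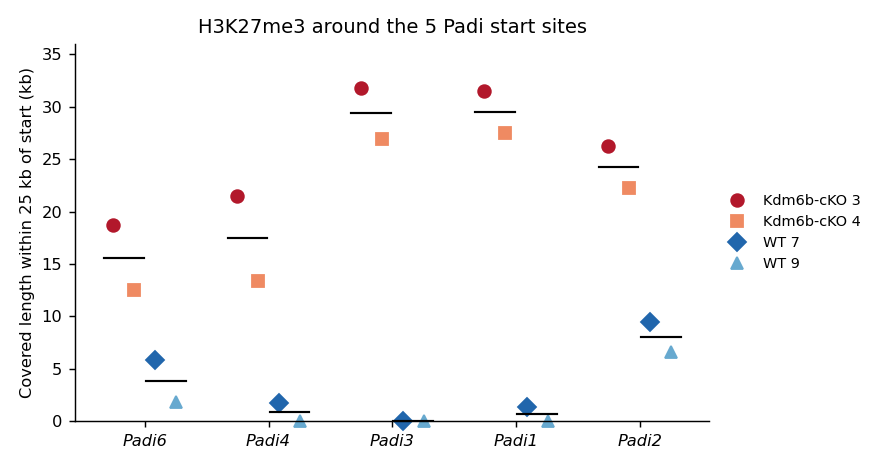
Length covered by peaks within 25 kb of each start site (kb) in each library (points), with the mean of 2 libraries per genotype as black lines. In all 5 genes both Kdm6b-cKO points lie above both WT points, and the WT points of Padi3 are both at 0.

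In all 5 members both Kdm6b-cKO libraries lay above both WT libraries within 25 kb of the start, and 62.8% of the 12441 genes with any coverage there did so. At equal covered length 2 of the 5, Padi1 and Padi2, kept this order. The reverse was found in 0 members and in 1.64% of genes. The direction of the members was therefore common in these lists. The median difference was 16.6 kb over the members, with a range of 11.8 to 29.4 kb, and 2.21 kb over all 12441 genes, with quartiles of 0.656 and 5.44 kb. By mean length in Kdm6b-cKO the order was Padi1 (29.5 ± 2.86 kb), Padi3 (29.4 ± 3.45), Padi2 (24.2 ± 2.83), Padi4 (17.4 ± 5.77) and Padi6 (15.6 ± 4.42; all SD, n = 2). Padi1 and Padi3 did not differ beyond their spread, nor did Padi4 and Padi6. By mean length in WT, Padi2 led with 8.01 ± 2.07 kb, followed by Padi6 (3.83 ± 2.84), Padi4 (0.863 ± 1.22) and Padi1 (0.659 ± 0.932; all SD, n = 2), with Padi3 at 0 in both libraries, and Padi4 and Padi1 did not differ beyond their spread. The neighboring windows of Padi6 and Padi4 share 18.4 kb and those of Padi4 and Padi3 share 13.6 kb, and those of Padi1 and Padi2 share none.

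Most of the covered bases lay apart from the WT peaks. Of the bases covered in at least 1 library, 66.0 kb (56.8%) were covered in both Kdm6b-cKO and no WT library, beside 17.8% of covered bases genome-wide. Only 3.47 kb (2.99%) were covered in all 4, beside 25.8% genome-wide. A further 29.7 kb (25.6%) were covered in 1 Kdm6b-cKO library alone, close to the 26.97% of the genome. Bases with both WT and no Kdm6b-cKO coverage came to 0.781 kb, in the gap between Padi1 and Padi2. No WT peak lay in the 102 kb of chr4:140767119-140869037, from the 5′ part of Padi4 through Padi3 and Padi1, of which 54.9% and 45.8% were covered in the Kdm6b-cKO libraries. No library had a peak over 109 kb of the cluster. Of 21 regions made by joining the lists, 12 were found in both Kdm6b-cKO and no WT library, beside 14.5% of 54317 regions genome-wide. A further 2 were found in all 4, beside 19.9% genome-wide. In both WT libraries alone there were 0, near the 0.609% of the genome. The 3 longest of the 12, in Padi3, upstream of Padi1 and in Padi1, ranked 5, 12 and 23 of the 7880 regions of that kind.

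Exons and introns had similar covered shares in each Kdm6b-cKO library. Peaks covered 43.3% and 37.2% of exonic bases in Kdm6b-cKO and 1.84% in both WT libraries, 44.3% and 38.5% of intronic bases against 8.42% and 2.27%, and 55.02% and 40.0% of the bases between genes against 7.07% and 6.60%. The gap between Padi1 and Padi2, which holds the long non-coding gene 4930515B02Rik, had the most kb of any segment in the Kdm6b-cKO libraries, with 34.2, 27.4, 2.81 and 3.66 kb. Of the 4 non-coding genes that overlap the cluster, Gm13032, on the plus strand from beside the Padi3 start into the 3′ part of Padi1, was covered at 82.3% and 49.1% of its promoter in Kdm6b-cKO and 0% in WT. The promoter of 4930515B02Rik was covered at 66.8% and 72.2% against 11.03% and 0%, and that of Gm26226, a small nuclear RNA gene in Padi2, at 100% and 100% against 24.8% and 0%. Gm13031, antisense to the 3′ end of Padi2, starts outside the cluster and had 35.4% and 41.0% against 11.2% and 22.1%.

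**Figure D5:**
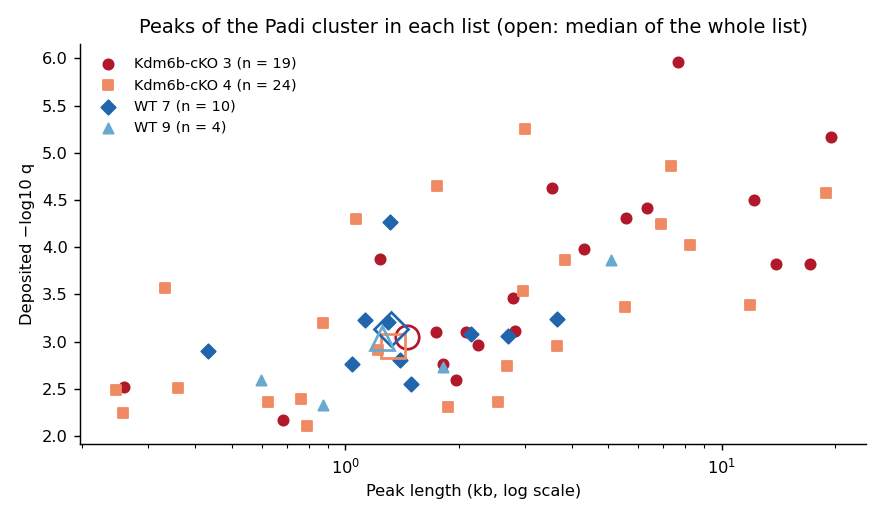
Length (kb, log axis) and deposited −log10 q of each peak in the cluster, by library, with open symbols at the medians of the whole lists. Peaks over 10 kb occur in the Kdm6b-cKO libraries alone, but WT 7 and WT 9 have only 10 and 4 peaks here. The −log10 q of all peaks lies between 2.11 and 5.96.

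The Kdm6b-cKO peaks of the cluster were long for their lists, with median fold ratios above the list medians. The peaks of the cluster numbered 19, 24, 10 and 4 in Kdm6b-cKO 3, Kdm6b-cKO 4, WT 7 and WT 9, and those over 10 kb numbered 4, 2, 0 and 0. By length, a peak of 12.2 kb lay at percentile 95.0 of the Kdm6b-cKO 3 list. One of 11.9 kb lay at percentile 95.6 of the Kdm6b-cKO 4 list. Such long peaks were thus uncommon in these lists, and with 10 and 4 WT peaks a count of 0 says little. The median length of the cluster peaks was 2.83 and 2.21 kb in Kdm6b-cKO, above the 1.46 and 1.34 kb of the whole lists. It was 1.36 and 1.35 kb in WT, near the 1.32 and 1.25 kb of the whole lists. Their median fold ratio over the local background was 3.04 and 2.94 in Kdm6b-cKO 3 and 4, beside 2.84 and 2.84 over the whole lists. In WT 7 and WT 9 it was 2.89 and 2.95, beside 2.93 and 3.06. The median −log10 q was 3.82 and 3.28 in Kdm6b-cKO, beside 3.05 and 2.95 over the whole lists, and 3.07 and 2.66 in WT, beside 3.13 and 3.04. The 17.2 kb peak in Padi3 had a fold ratio of 3.04 and a −log10 q of 3.82, at percentile 76.0 of its list, while its length was at percentile 97.1. With only peaks of −log10 q of at least 3, the cluster still held 101, 72.6, 12.3 and 5.08 kb.

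Genes most like Padi3 in covered length within 25 kb were sought among protein-coding genes over 500 kb from the cluster, so the other members were left out. By the smallest value of the largest absolute difference over the 4 libraries, they were Gm4763 (2.68 kb), Lcn3 (3.19 kb), Sppl2c (3.75 kb), Slc6a11 (3.77 kb) and BC049730 (3.84 kb). Gm4763 had 29.1, 29.4, 1.07 and 1.11 kb. Slc6a11, a GABA transporter, had 28.8, 24.5, 2.92 and 3.77 kb, and differed from Padi3 in its promoter, which was covered at 48.7% and 62.8% in WT. As at Padi3, some promoters were covered in both Kdm6b-cKO libraries and at 0% in both WT libraries. These were BC049730 (83.0% and 100% in Kdm6b-cKO), Gm4763 (23.25% and 29.0%) and Sppl2c (15.7% and 18.25%). The promoter of Lcn3 had 100% and 84.6% in Kdm6b-cKO, against 5.68% and 0% in WT. BC049730 and Gm4763 are neighbors on chromosome 7 and share coverage.

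No promoter of the substrates and partners of the enzymes passed the test. The list held 20 genes of citrullination and cornification, of which 10 had a promoter marked in at least 1 library and 0 had the state of Padi3 and Padi1. That state was held by 14.9% of promoters with the mark in any library, and 0 of 10 cannot be told apart from that share. The other 10, among them Flg (filaggrin), Flg2, Hrnr, Rptn, Ivl, S100a3, Tgm3 and Vim, were unmarked in all 4, as were 71.2% of all protein-coding promoters. By limma over 6251 promoters with Benjamini-Hochberg adjustment, 0 of the 10 were called higher and 0 lower in Kdm6b-cKO, beside 7.93% and 0.096% of all promoters tested. At an unadjusted p under 0.05 the counts were 1 higher and 1 lower. Krt1, a keratin of the differentiating epidermis, was covered at 100% and 100% in the Kdm6b-cKO lists, against 80.1% and 72.3% in the WT lists, a difference of 23.8 percentage points (limma SE 3.54, adjusted p = 0.0832). Tchh, which encodes trichohyalin, a substrate of PADI3 in the hair follicle, was covered at 46.1% and 55.4% in the Kdm6b-cKO lists, against 83.5% and 74.0% in the WT lists, so its libraries did not overlap in the direction opposite to Padi3 (difference −28.0 points, limma SE 5.90, adjusted p = 0.132). Within 25 kb of Tchh the lengths were 11.1, 6.83, 13.6 and 12.3 kb. Lor, which encodes loricrin, had promoter shares of 86.6%, 100%, 82.0% and 38.2%, and Tchhl1 had 58.9%, 23.0%, 14.1% and 18.97%. Mbp, which encodes myelin basic protein, a substrate of PADI2, had 21.4%, 36.7%, 0% and 10.7%. Krt5, Krt14, Tgm1, Tgm5 and Gfap had at most 37.8% in any library.

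Within 25 kb of the start, 14 of the 20 genes had any coverage. Of these, 10 (71.4%) had both Kdm6b-cKO libraries above both WT libraries, near the 62.8% of all genes with any coverage. The reverse was found in 2, Tchh and Hrnr, and in 1.64% of all such genes. The lengths at Hrnr were 0, 0.291, 0.456 and 0.439 kb, in the order Kdm6b-cKO 3, Kdm6b-cKO 4, WT 7, WT 9. Its order thus rests on very little coverage. Both genes lie on chromosome 3, with starts at 93319749 (Hrnr) and 93442330 (Tchh). Whether the list has an excess of reversed genes was not tested. The limma calls depended on single libraries. Over all promoters, 496 were called higher, but 0 when WT replicate 9 was left out and 1354 when Kdm6b-cKO replicate 4 was. Without Kdm6b-cKO replicate 3 it called Krt5 and Tgm1 higher, without Kdm6b-cKO replicate 4 Krt14, and without WT replicate 7 Krt1, with the lone library assumed to vary like the other group. With shares centered on each library's mean, and with lists of equal covered length, Tchh was called lower (adjusted p = 0.00739 and 0.0355).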

How the data were processed

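The authors sequenced H3K27me3 ChIP libraries of cultured dermal fibroblasts, subsampled them to a like number of reads, aligned them to mm10 and called broad peaks per library. Tools in the submitters' processing notes include MACS2 2.2.7.1 and Bowtie2 2.3.5.1. How the input entered peak calling is not given in the sources used here, and it was not used. Each deposited peak has start and end, a score for display, its fold ratio (enrichment over background), and its p and q on the −log10 scale, averaged by MACS2 over the broad region. The lowest deposited −log10 q of the lists was 2.02 to 2.05. The deposited score and −log10 p were not used. The lists hold no read counts per peak, so no counting interval can be given.

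Samples were grouped by title. Covered length was the union of peaks of a library on 19 autosomes and the X chromosome. Genes and start sites were those of GENCODE M21. The promoter shares of 6251 promoters marked in at least 1 library were fitted with limma 3.58.1 (R 4.3.3) with a threshold of 0.05. Shares are bounded at 0% and 100% and often tied, which limits that fit. An exact permutation test of 2 against 2 libraries cannot go below p = 0.33. Interval functions and the limma step were tested on simulated data. Python 3.11.15, numpy 2.4.6, pandas 2.3.3 and matplotlib 3.10.9 were used. Named genes were the 5 members, genes overlapping the cluster, the 3 nearest protein-coding genes on each side, the list of 20 genes, the 5 genes most like Padi3 over 500 kb away, and cell type markers. Members, lists and tests were chosen with earlier results of these data known. Alternatives used other peak sets, windows and limits, and left out each library.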

Additional observations from a re-analysis of the deposited data

How the results depend on the processing

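The difference in covered length of the cluster was 77.4 kb with an equal number of strongest peaks, 78.1 kb with peaks of −log10 q of at least 3 and 86.2 kb with peaks under 1 kb apart joined, beside 85.3 kb. It was 59.4 kb when scaled to the covered length of each list and 28.2 kb at equal covered length. Leaving out 1 library each gave 75.1 to 95.4 kb. The number of promoters that carried the mark in each Kdm6b-cKO library but in no WT library was 0 at equal covered length. In every other alternative run it was 2. Leaving out 1 library could not change this count. Padi3 and Padi1 then still qualified, and promoters marked in all 4 libraries or in none could not. Of the list of 20 genes, limma called 0 to 2 promoters higher with 1 library left out, and 1 lower at equal covered length and 1 lower with centered shares. Of 95 values of single members under alternatives, none reversed and 18 moved by more than the spread between replicates. With 2 libraries per genotype, leaving out 1 cannot shift a difference beyond that spread, pooled over the genotypes. Those runs could therefore not count as moved. Some of the 18 came from windows of another length. Of the 95 values, 85 had a reported value above 0. Of these, 84 stayed above 0 and 1 became 0, the Padi1 promoter at equal covered length. The Padi4 promoter, reported at 0, was above 0 in 1 of 10 alternatives, the start site ± 5 kb. The lists at equal covered length held 5183, 6975, 9588 and 22597 peaks in Kdm6b-cKO 3, Kdm6b-cKO 4, WT 7 and WT 9. The full lists held 44077, 40565, 29841 and 22597. This alternative thus drops most peaks of both Kdm6b-cKO lists and of WT replicate 7, and none of WT replicate 9. No paired analysis was possible because the groups share no replicate number. Peak calls without counts limit the precision, and a stretch without a peak is not a stretch without the mark.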
